A study of Mus musculus with 17 samples.

Results

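The genes of activator protein 1 (AP-1) and its relatives encode leucine zipper transcription factors that bind DNA as pairs. The 10 members described here are Fos, Fosb and Fosl2 of the FOS family, Jun, Junb and Jund of the JUN family, Batf, Batf2 and Batf3 of the BATF family, and Atf3. They were taken from a fixed list of genes, out of 21887 protein-coding genes, and each peak with its summit within 20 kb of the span of a member was assigned to it. This gave 325 of 144384 peaks, which fell into 95 of 55577 merged sites, where peaks of any list that overlap form 1 site. Binding of 5 factors had been mapped by ChIP-seq, which sequences the DNA held by an antibody against a factor, in C57BL/6 mouse macrophages on day 7 of their differentiation from bone marrow. STAT6, which the IL4 receptor activates, was mapped after 2 h of IFNg+IL4 or of IL4. IRF1, an interferon-induced factor, JUNB itself and CEBPB, a C/EBP family factor active in the myeloid lineage, were mapped after 4 h of IFNg+IL4, after 4 h of IFNg and in untreated cells. MYC, a growth regulator, was mapped after 2 h and 4 h of IFNg+IL4, after 2 h and 4 h of IL4 and in untreated cells. IL4 was given at 10 ng/ml and IFNg at 100 ng/ml, in the combination as well, and an untreated whole extract served as the input. The MYC, IRF1, JUNB and CEBPB libraries are labelled wild type. The titles of the STAT6 and input libraries name no genotype, and no group is labelled with a genetic change.

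FOS proteins cannot pair with each other and depend on a JUN partner, while JUN proteins can also pair among themselves. The FOS and JUN genes belong to the immediate early genes, which are transcribed within minutes of many stimuli. BATF proteins pair with JUN proteins but lack the part that activates transcription, and in immune cells the pair binds composite elements together with IRF4 or IRF8. ATF3 is a stress-induced member of the ATF/CREB family that in macrophages restrains the transcription of inflammatory genes. JUNB is both a member and 1 of the 5 mapped factors, so its peaks at Junb show the protein at the gene that encodes it.

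Every group was a single library. No spread between replicates is known, no test between treatments was made, and each comparison describes these libraries. Between 244 (IRF1, untreated) and 24927 peaks (STAT6, IL4) were listed, and a longer list places a peak near more genes of any kind, so each count of members stands beside the share of all protein-coding genes near a peak of that list. The untreated JUNB list differed from the other 15 in its threshold: it reached down to a −log10 q of 0, and 5355 of its 9229 peaks had a −log10 q of at least 2, the level that every peak of the other lists met. Of the 128 input peaks, 0 lay near a member. All 10 macrophage markers examined, among them Csf1r and Spi1, had a STAT6 peak in both lists. Of 15 markers of other cells, 6 (40.0%) had one in each list, where 46.0% of all protein-coding genes had one with IFNg+IL4 and 49.8% with IL4. Cd8a, Mpo, Col1a1 and Col1a2 had no peak in any list, but Ms4a1 had 27 over all lists, Flt3 22, Zbtb46 22 and Cd79a 20. In some lists the markers of other cells were above all genes, as for CEBPB with IFNg (60.0% beside 48.2%) and untreated JUNB (40.0% beside 25.2%). In others they were below, as for MYC with IL4 at 2 h (40.0% beside 51.1%). A peak near a gene is not a measure of its expression.

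The bases upstream of the gene start are shown for 5 members that had peaks of 4 or more lists over that stretch and at least 1 match to a motif searched there. Jun also had peaks of 4 lists over its stretch but no match to the motifs reported, and is not shown. RefSeq (GRCm38.p6) gives such a stretch for 9 of the 10 members, all but Batf2. For the 5 below, the 250 bases before the start are written 5′ to 3′ on the strand of the gene, with matches to a motif in capitals.

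Fos, chr12:85473640-85473889, plus strand: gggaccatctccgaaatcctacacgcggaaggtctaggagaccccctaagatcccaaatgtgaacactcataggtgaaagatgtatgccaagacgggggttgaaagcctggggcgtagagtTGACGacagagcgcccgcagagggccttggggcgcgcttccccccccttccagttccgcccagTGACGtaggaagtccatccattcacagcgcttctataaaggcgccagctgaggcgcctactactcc

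Fosb, chr7:19310046-19310295, minus strand: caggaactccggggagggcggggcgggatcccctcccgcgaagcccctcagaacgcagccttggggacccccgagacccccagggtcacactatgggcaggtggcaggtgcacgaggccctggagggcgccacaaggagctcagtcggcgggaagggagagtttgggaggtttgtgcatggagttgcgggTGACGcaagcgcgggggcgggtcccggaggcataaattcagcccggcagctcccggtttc

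Junb, chr8:84978749-84978998, minus strand: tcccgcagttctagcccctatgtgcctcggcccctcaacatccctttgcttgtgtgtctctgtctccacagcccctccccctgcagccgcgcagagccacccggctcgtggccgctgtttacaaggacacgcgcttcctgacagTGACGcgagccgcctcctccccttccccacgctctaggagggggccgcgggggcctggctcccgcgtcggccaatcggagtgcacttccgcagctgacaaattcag

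Batf3, chr1:191098164-191098413, plus strand: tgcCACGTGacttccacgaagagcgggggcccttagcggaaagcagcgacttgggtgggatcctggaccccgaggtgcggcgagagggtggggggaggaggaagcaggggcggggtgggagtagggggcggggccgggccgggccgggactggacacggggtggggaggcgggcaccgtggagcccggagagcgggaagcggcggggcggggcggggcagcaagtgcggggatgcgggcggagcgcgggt

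Atf3, chr1:191183334-191183583, minus strand: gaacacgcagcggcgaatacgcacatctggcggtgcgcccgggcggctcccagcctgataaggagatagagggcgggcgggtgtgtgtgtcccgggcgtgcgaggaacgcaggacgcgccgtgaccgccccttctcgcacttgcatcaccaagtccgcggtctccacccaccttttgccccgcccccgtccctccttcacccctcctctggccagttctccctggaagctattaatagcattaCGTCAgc

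The capitals mark TGACG, the first part of the cyclic AMP response element (CRE), on either strand in Fos, Fosb, Junb and Atf3. In Batf3 they mark an E-box, CACGTG, at positions -247 to -242 counted from the start. None of these matches overlaps another. Both strands were searched. TGACG was added to the search after the sequences had been seen, and it occurs in 5 of the 9 members' stretches (also in Batf) and in 17.8% of 32851 such stretches in the genome. The other motifs were the AP-1 element TGANTCA, in 0 of 9 members and 6.75% of stretches, the whole CRE TGACGTCA, in 0 and 1.55%, and the STAT6 type element, in 0 and 5.85%. The E-box was in 1 member and 6.02% of stretches. The interferon response element GAAANNGAA was in 2 members (Fosl2 and Jund) and 7.13% of stretches, and the C/EBP element TTGCNNAA in 1 member (Jund) and 9.56%. A match describes these letters and is not a binding site.

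STAT6 had a peak at every member in both of its lists. With IFNg+IL4 all 10 members had a STAT6 peak, and with IL4 all 10 had one, where 46.0% and 49.8% of all protein-coding genes did. CEBPB was near 7 members with IFNg+IL4 (22.4% of all genes), 9 with IFNg (48.2%) and 6 untreated (20.7%). IRF1 was near 7 members with IFNg+IL4 (29.7% of all genes), 5 with IFNg (18.0%) and 3 untreated (2.47%). JUNB was near 5 members with IFNg+IL4 (16.8% of all genes), 5 with IFNg (20.7%) and 10 untreated (25.2%). When a −log10 q of at least 2 was required there too, untreated JUNB was near 7 members, and the share of all genes was not computed at that threshold. MYC was near 4 members with IFNg+IL4 at 2 h (20.9% of all genes), 5 with IFNg+IL4 at 4 h (22.6%), 9 with IL4 at 2 h (51.1%), 8 with IL4 at 4 h (44.8%) and 0 untreated (4.72%). At full length, the share of members was above that of all genes in all lists except untreated MYC. When the lists of a factor were cut to equal length, CEBPB was near 7 members with IFNg+IL4 (20.6% of all genes), 7 with IFNg (20.6%) and 6 untreated (20.7%). MYC was then near 2 members in each treated list, where between 4.79 and 5.06% of all genes were, and 0 untreated (4.72%). IRF1 was then near 0 members with IFNg+IL4 (1.5% of all genes), 2 with IFNg (1.69%) and 3 untreated (2.47%). JUNB was then near 5 members with IFNg+IL4 (16.8% of all genes), 5 with IFNg (16.7%) and 7 untreated (17.2%).

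**Figure D1:**
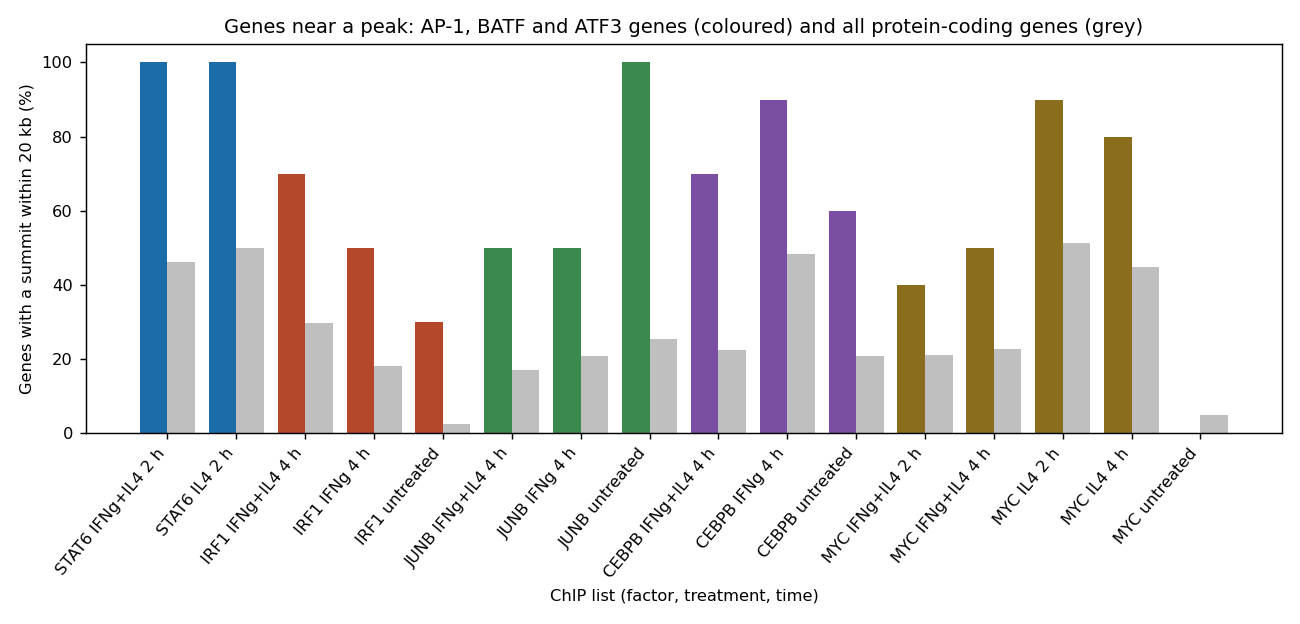
Share of genes (%, vertical axis) with a peak summit within 20 kb in each of the 16 ChIP lists (horizontal axis). Coloured bars are the 10 AP-1, BATF and ATF3 genes and grey bars all 21887 protein-coding genes. Both STAT6 lists and the untreated JUNB list reach 10 of 10 members, and the untreated MYC list 0. The untreated JUNB list has a looser threshold and reaches 7 members at a −log10 q of at least 2.

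**Figure D2:**
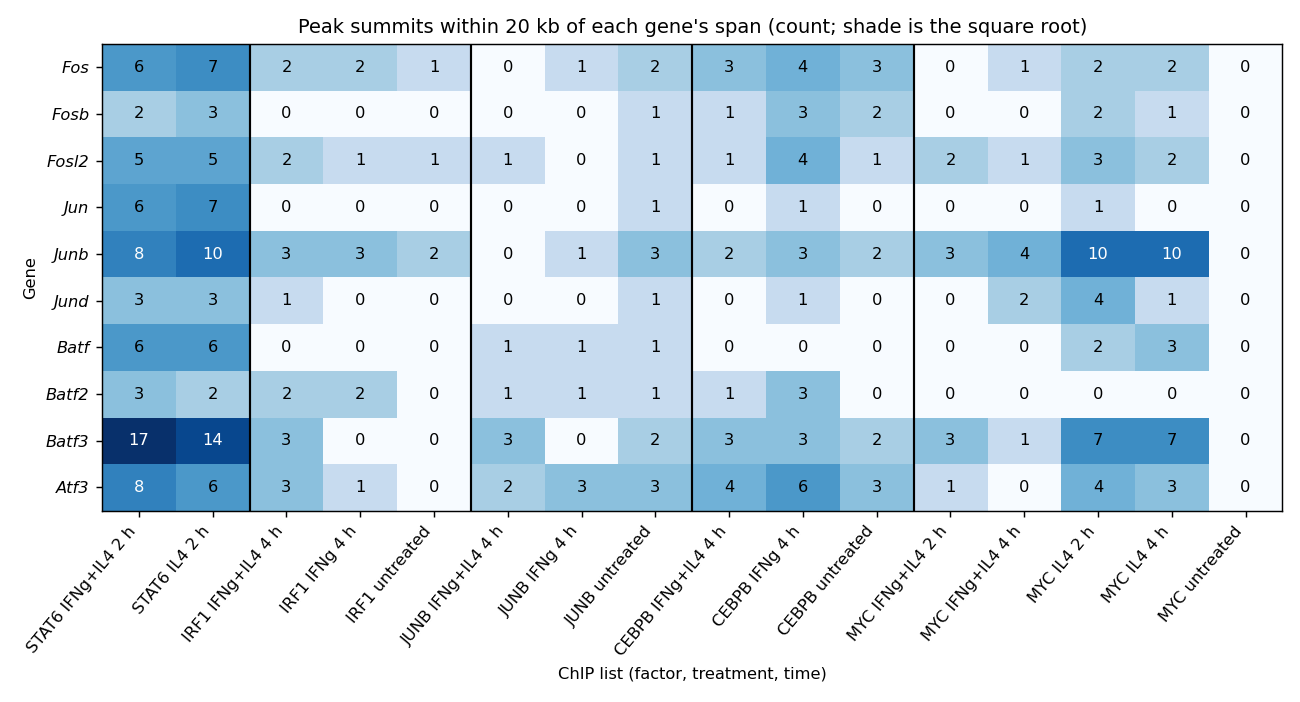
Number of peak summits within 20 kb of each member (rows) in each ChIP list (columns), with darker cells for higher counts. The highest counts are those of STAT6 at Batf3, 17 with IFNg+IL4 and 14 with IL4, and Batf2 is the member with no MYC peak in any list.

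Fos, the founding FOS gene, had 36 peaks in 13 of the 16 lists. STAT6 had 6 peaks there with IFNg+IL4 and 7 with IL4. IRF1 had 2 with IFNg+IL4, 2 with IFNg and 1 untreated, and CEBPB 3, 4 and 3 in the same order of treatments. JUNB had 0 peaks with IFNg+IL4, 1 with IFNg and 2 untreated. MYC had 0 with IFNg+IL4 at 2 h, 1 with IFNg+IL4 at 4 h, and 2 with IL4 at each time. The peaks gathered at 2 kinds of place, the gene start and a set of distal sites. Over the printed start (site chr12:85473377-85473942) all 3 IRF1 lists and both STAT6 lists had a summit and CEBPB, JUNB and MYC had none. The IRF1 peak there had a deposited fold enrichment over control of 22.4 with IFNg+IL4, 13.1 with IFNg and 11.9 untreated, which placed it in the strongest 7.79%, 24.9% and 57.4% of peaks of its own list by −log10 p. Such ranks from lists of different length show no change between treatments. No GAAANNGAA lies in the printed stretch. A site 5.05 kb upstream (chr12:85468640-85469131) was listed by all 4 other factors in 10 lists: both STAT6 lists, all 3 CEBPB lists, JUNB with IFNg and untreated, and MYC in all treated lists but IFNg+IL4 at 2 h. CEBPB held a further pair of sites 15.5 and 16.7 kb downstream of the start in all 3 lists, and its strongest peak at Fos was at 15.5 kb with IFNg, with a fold enrichment of 39.5.

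Fosb, a FOS gene of neurons and many stimulated cells, was sparse, with 15 peaks in 8 lists. It had no IRF1 peak, and a JUNB peak only in the untreated list, 6.32 kb upstream with a −log10 q of 2.62. CEBPB lay over the printed start in all 3 lists (summits 0.093 kb upstream with IFNg+IL4, 0.078 kb with IFNg and 0.11 kb untreated). The deposited fold enrichment of that peak was 16.8 with IFNg+IL4, 35.4 with IFNg and 12.0 untreated. It stood in the strongest 12.0% of its list with IFNg+IL4, 6.37% with IFNg and 29.4% untreated. STAT6 had a weak peak over the same start with IL4, at 95.2% of its list by rank, and none there with IFNg+IL4. MYC was listed at Fosb with IL4 at both times, 1.36 kb inside the gene at 4 h, and with IFNg+IL4 at neither.

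Fosl2, which encodes FRA-2, a FOS protein with a weaker activating part, had 30 peaks in 14 lists. A site 0.689 kb upstream of its start was shared by 11 lists (chr5:32135312-32136027). It held STAT6 and IRF1 in all of their lists, JUNB with IFNg+IL4 and untreated (−log10 q 8.15 and 0.296), and MYC in all 4 treated lists. Among the members, only Junb had a MYC peak of higher rank, and not with IL4 at 2 h, where its highest had rank 213. The MYC peak here had rank 366 of 3034 with IFNg+IL4 at 2 h, 414 of 3402 with IFNg+IL4 at 4 h, 169 of 13211 with IL4 at 2 h and 355 of 9645 with IL4 at 4 h. CEBPB was absent from that site and lay instead inside the gene, 3.11 kb after the start (chr5:32139298-32139985), in all 3 lists. The CEBPB peak had a fold enrichment of 16.8 with IFNg+IL4, 40.4 with IFNg and 11.4 untreated, and ranks of 574 of 6278, 377 of 21499 and 1214 of 5540.

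Jun, whose product is the classical partner of FOS, was listed almost wholly by STAT6: 13 of its 16 peaks were of STAT6, 6 with IFNg+IL4 and 7 with IL4. In both lists the highest STAT6 peak at Jun was at the same place: 1.79 kb upstream with IFNg+IL4 (chr4:95053723-95054181), with a fold enrichment of 13.9 and rank 4291 of 21481, and overlapping it with IL4, with a fold enrichment of 14.4 and rank 5292 of 24927. IRF1 had no peak at Jun. The other 3 peaks were 1 each of CEBPB with IFNg, MYC with IL4 at 2 h and JUNB untreated. The JUNB peak, at the start of Jun, had a −log10 q of 0.0 and would not be listed at the threshold of the other lists. Jund, the JUN gene that is active in resting cells, also had 16 peaks. STAT6 had 3 there with IFNg+IL4 and 3 with IL4. MYC had 0 with IFNg+IL4 at 2 h, 2 with IFNg+IL4 at 4 h, 4 with IL4 at 2 h and 1 with IL4 at 4 h. The 6 peaks of the Jund site with most lists, 2.99 kb after the start, lay nearer to the start of the neighbouring gene Iqcn.

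Junb had 64 peaks in 14 lists, in a window that also holds Rnaseh2a, Prdx2 and Hook2, and 34 of the 64 lay nearer to its own start than to another. JUNB protein was listed at the gene that encodes it at 0 places with IFNg+IL4, 1 with IFNg and 3 in untreated cells (2 when a peak is counted only if the start of Junb is the nearest, since the one 6.9 kb upstream is nearest to the start of Hook2). No 2 of these 4 peaks overlapped. The IFNg peak was 3.6 kb upstream (chr8:84982260-84982452) with a fold enrichment of 7.4, a −log10 q of 11.3 and rank 4385 of 7428. The untreated peaks were 0.089 kb inside the gene, 1.16 kb upstream and 6.9 kb upstream, with −log10 q of 0.934, 2.25 and 2.04 and fold enrichments of 3.47, 3.87 and 3.92. The first of these is below the threshold of the other lists, the other 2 pass it narrowly, and none reaches a −log10 q of 5. The IFNg peak was the one of the 4 that no other factor shared.

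Of the 64 peaks at Junb, 27 were of MYC over its 5 lists and 18 of STAT6 over its 2. MYC had 3 peaks with IFNg+IL4 at 2 h, 4 with IFNg+IL4 at 4 h, 10 with IL4 at 2 h, 10 with IL4 at 4 h and 0 untreated. All 4 treated lists had peaks at sites 7.08 kb upstream (chr8:84985279-84986496) and 9.16 kb downstream of the start (chr8:84969281-84969816), which lie nearer to the starts of Hook2 and Prdx2. At the upstream site the strongest MYC peak had rank 120 of 3034 with IFNg+IL4 at 2 h, 41 of 3402 with IFNg+IL4 at 4 h, 233 of 13211 with IL4 at 2 h and 253 of 9645 with IL4 at 4 h. At the printed start of Junb, MYC was listed with IFNg+IL4 at 4 h, weakly (rank 3189 of 3402), not with IFNg+IL4 at 2 h, and with IL4 at both times (rank 3064 of 13211 and 1793 of 9645). STAT6 lay over the same start in both lists. The site 1.16 kb upstream (chr8:84979568-84980268) was 1 of 3 near the members listed for all 5 factors, over 11 lists of different treatments. JUNB was listed there only in untreated cells. By rank in each IRF1 list the IRF1 peak there was the strongest at any member but Batf2, with a fold enrichment of 25.9 with IFNg+IL4, 25.5 with IFNg and 20.7 untreated, and CEBPB was listed in all 3 of its lists.

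**Figure D3:**
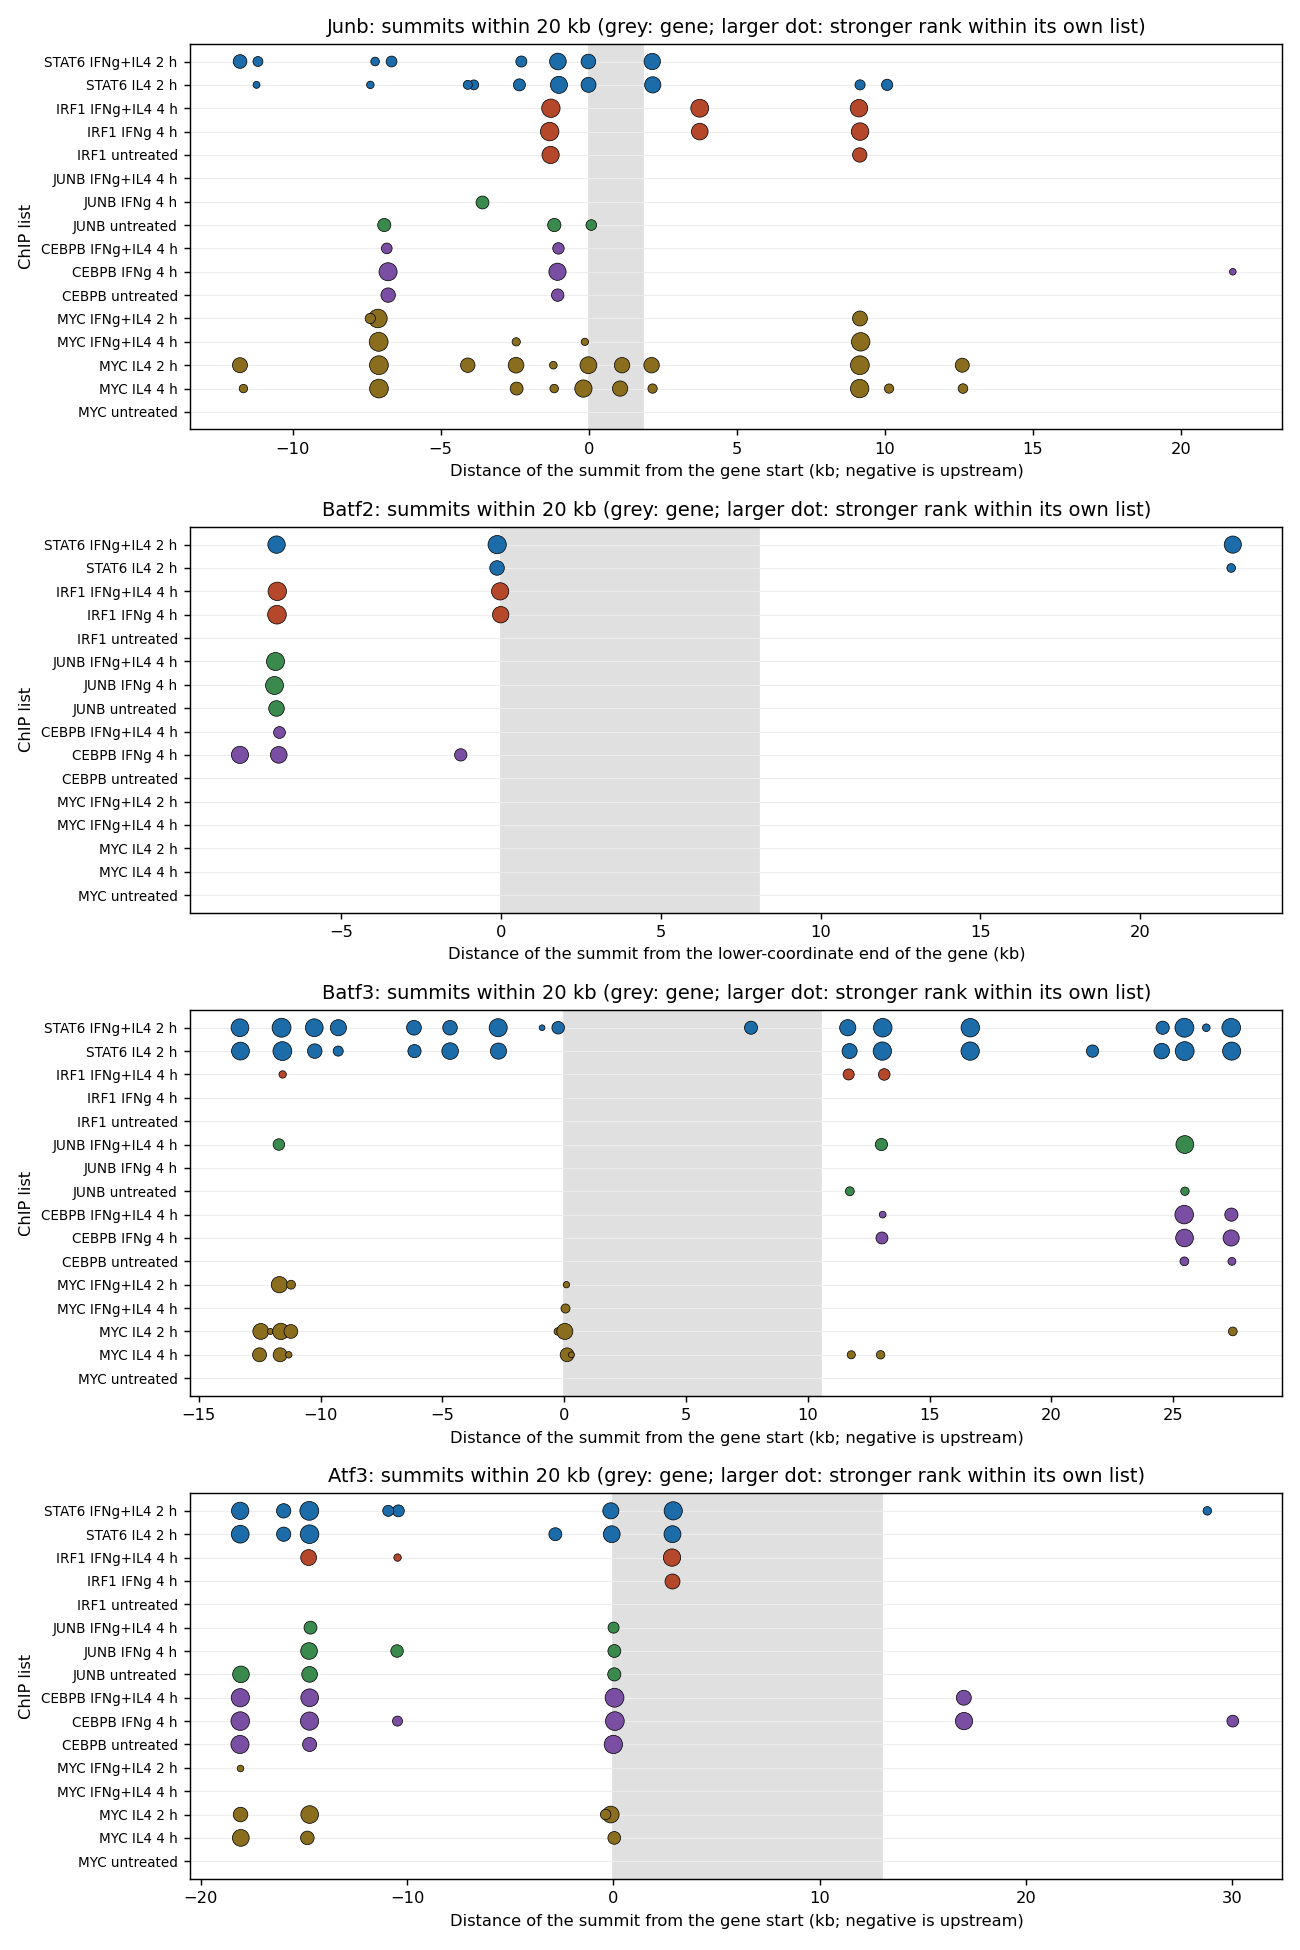
Positions of peak summits at Junb, Batf2, Batf3 and Atf3 (horizontal axes, kb from the gene start, or for Batf2 from the lower-coordinate end of the gene), by ChIP list (vertical axes). Larger dots are peaks of a stronger rank within their own list and the grey band is the gene. JUNB is listed at Junb at 0 places with IFNg+IL4, 1 with IFNg and 3 untreated (2 at a −log10 q of at least 2). Batf2 has no peak of untreated IRF1 or CEBPB or of MYC.

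Batf, which pairs with JUN proteins in T cells, B cells and myeloid cells, had 20 peaks in 7 lists and none of IRF1 or CEBPB. No peak lay within 1 kb of its start. STAT6 had 6 peaks with IFNg+IL4 and 6 with IL4, at the same 6 sites. The strongest were 12.7 kb upstream (chr12:85673757-85674377 with IFNg+IL4), with a fold enrichment of 48.8 with IFNg+IL4 and 52.2 with IL4, and 16.5 kb upstream, with 36.8 in each. JUNB lay at the 16.5 kb site with IFNg+IL4 (rank 1995 of 5556) and with IFNg (rank 4148 of 7428). In untreated cells, whose JUNB list had a looser threshold, its peak was elsewhere, 24.1 kb after the start. MYC had 0 peaks with IFNg+IL4 at 2 h, 0 with IFNg+IL4 at 4 h, 2 with IL4 at 2 h and 3 with IL4 at 4 h.

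Batf2, an interferon-induced gene whose product works with IRF1 in macrophages, had 16 peaks in 9 lists and none of MYC. IRF1 had 2 peaks with IFNg+IL4, 2 with IFNg and 0 untreated, and CEBPB 1, 3 and 0 in the same order. STAT6 had 3 peaks with IFNg+IL4 and 2 with IL4, and JUNB 1 peak in each of its 3 lists. The window also holds Majin, and the listed start nearest to each site described below was that of Arl2. Batf2 has no listed start, so whether its own start lies nearer is not known. The table used here gives no strand for Batf2, so positions are given from its lower-coordinate end. About 7 kb outside that end lay a site of 8 lists (chr19:6156982-6157697). STAT6 was listed there with IFNg+IL4 (fold enrichment 18.6, rank 3693 of 21481) and not with IL4. IRF1 was listed with IFNg+IL4 (rank 486 of 8226) and with IFNg (rank 137 of 4189), not untreated. JUNB was listed in all 3 states, with a fold enrichment of 14.5 with IFNg+IL4, 16.5 with IFNg and 5.29 untreated, and its ranks there were 584 of 5556, 884 of 7428 and 3260 of 9229. These were its strongest ranks at any member with IFNg+IL4 and with IFNg. At the lower-coordinate end itself (chr19:6164006-6164524) STAT6 had a fold enrichment of 34.3 with IFNg+IL4 (rank 1665 of 21481) and 9.73 with IL4 (rank 11187 of 24927), and IRF1 was listed with IFNg+IL4 and with IFNg.

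Batf3, which dendritic cells that cross-present antigen require, had 65 peaks in 12 lists. STAT6 made up 31 of them, 17 with IFNg+IL4 and 14 with IL4. A site 11.6 kb upstream (chr1:191085466-191087579) and another 25.5 kb after the start (chr1:191123431-191124611) were among the strongest STAT6 peaks of the genome, at ranks 34 and 36 of 21481 with IFNg+IL4 and 311 and 255 of 24927 with IL4. Their fold enrichments were 74.9 and 77.2 with IFNg+IL4, and 52.2 and 66.5 with IL4. IRF1 had 3 peaks with IFNg+IL4, 0 with IFNg and 0 untreated, all 3 at sites of STAT6. JUNB had 3 peaks with IFNg+IL4, 0 with IFNg and 2 in the untreated list with its looser threshold. The strongest JUNB peak lay at the 25.5 kb site with IFNg+IL4 (fold enrichment 13.7, rank 707 of 5556), where the untreated peak had a fold enrichment of 3.03 and rank 8158 of 9229. That untreated peak ranks below the 5355 that met the threshold of the other lists and would not be listed there. CEBPB was at the same site in all 3 lists, with a fold enrichment of 24.1 with IFNg+IL4, 23.1 with IFNg and 5.83 untreated. MYC had 3 peaks with IFNg+IL4 at 2 h, 1 with IFNg+IL4 at 4 h, 7 with IL4 at 2 h, 7 with IL4 at 4 h and 0 untreated. The site at the gene start (chr1:191098348-191098680) was listed by MYC in all 4 treated lists and by no other factor. Its summits lie just inside the gene, outside the printed stretch with the E-box. Another site (chr1:191097978-191098246), which spans the E-box, was listed by MYC with IL4 at 2 h and by STAT6 with IFNg+IL4. The only summit within the printed stretch is that of STAT6 with IFNg+IL4.

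Atf3, a neighbour of Batf3 on chromosome 1, had 47 peaks in 13 lists, and 43 of them were nearest to its own start. The gene start itself (chr1:191182910-191183779) was listed in 10 lists by STAT6, JUNB and CEBPB in all of theirs and by MYC with IL4 at both times. CEBPB had a fold enrichment of 32.0 with IFNg+IL4, 38.7 with IFNg and 17.8 untreated, at ranks 73 of 6278, 524 of 21499 and 390 of 5540. JUNB had a fold enrichment there of 6.0 with IFNg+IL4, 7.05 with IFNg and 3.74 untreated (−log10 q 8.03, 11.2 and 2.04). A site 14.7 kb upstream (chr1:191197590-191198462) was listed for all 5 factors over 11 lists of different treatments. STAT6 was there at rank 205 of 21481 with IFNg+IL4 and 974 of 24927 with IL4. JUNB was listed at that site in all 3 states too, so Atf3 and Batf2 were the 2 members with a JUNB site common to the 3 JUNB lists. A site 18.1 kb upstream (chr1:191201213-191201691) was listed by JUNB only in untreated cells, and by CEBPB and STAT6 in all of their lists. IRF1 had 3 peaks at Atf3 with IFNg+IL4, 1 with IFNg and 0 untreated. The one in both lists was 2.84 kb inside the gene, where STAT6 had a fold enrichment of 25.1 with IFNg+IL4 and 12.0 with IL4.

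Between 2 lists of a factor, a peak was counted as found in the other list when at least 1 bp of it overlapped a peak there. Shares carry exact Clopper-Pearson 95% intervals, which cover counting error only and take neighbouring peaks as independent. STAT6 peaks near the members were found in the other list about as often in both directions: 50 of 64 IFNg+IL4 peaks had an IL4 peak, 78.1% (66.0 to 87.5%), beside 80.3% of all peaks of that list, and 50 of 63 IL4 peaks had an IFNg+IL4 peak, 79.4% (67.3 to 88.5%), beside 68.7%. For IRF1, 9 of 16 IFNg+IL4 peaks were found with IFNg, 56.2% (29.9 to 80.2%), beside 47.6% of all, and 9 of 9 IFNg peaks with IFNg+IL4, beside 95.2%. The 4 untreated IRF1 peaks, at Fos, Fosl2 and Junb, were all found with IFNg, beside 94.7% of all untreated peaks. In the other direction, 4 of the 9 IFNg peaks were found in the untreated list, 44.4% (13.7 to 78.8%), beside 5.54% of all, and 4 of the 16 IFNg+IL4 peaks were, 25.0% (7.27 to 52.4%), beside 2.94%. With both lists cut to the same length, 9 of 10 IFNg+IL4 peaks (90.0%) and 1 of the 4 untreated peaks (25.0%) were found with IFNg. The share of all peaks was not computed at that length, so these values cannot be set beside it.

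JUNB peaks near the members were shared in part. Of 16 untreated peaks 4 were found with IFNg, 25.0% (7.27 to 52.4%), beside 46.9% of all untreated peaks. Of these 16, 5 had a −log10 q below 2. With a −log10 q of at least 2 in every list, 4 of 11 (36.4%) were found with IFNg. With both lists cut to the same length, 4 of 12 (33.3%) were. The share of all peaks was not computed at either setting. Of 7 IFNg peaks 4 were found in the untreated list, 57.1% (18.4 to 90.1%), beside 58.7% (14.3% at a −log10 q of at least 5). Of 8 IFNg+IL4 peaks 4 were found with IFNg, 50.0% (15.7 to 84.3%), beside 82.9%, and 4 of 7 IFNg peaks were found with IFNg+IL4, 57.1%, beside 62.0%. Each of these intervals holds the share of all peaks of its list. For CEBPB, 13 of 28 IFNg peaks were found in the untreated list, 46.4% (27.5 to 66.1%), beside 25.6% of all, and 13 of 13 untreated peaks were found with IFNg, beside 99.9%. All 15 CEBPB peaks with IFNg+IL4 were found with IFNg, beside 97.5%, and 15 of the 28 IFNg peaks were found with IFNg+IL4, 53.6% (33.9 to 72.5%), beside 28.2%. Among the shares given here, 4 have intervals that leave out the share of all peaks of their list: 46.4% and 53.6% for CEBPB IFNg peaks, and 44.4% and 25.0% for IRF1 IFNg and IFNg+IL4 peaks in the untreated list, each of the IRF1 shares resting on 4 peaks. The CEBPB shares depend on list length: with both lists cut to the same number of strongest peaks they were 78.6% (11 of 14) and 92.9% (13 of 14). The share of all peaks was not computed at that length, so whether the members then differ from it is not known.

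MYC had fewer peaks at the members with IFNg+IL4 than with IL4. At 2 h there were 9 MYC peaks with IFNg+IL4 and 35 with IL4, and at 4 h 9 and 29. The whole lists differed in the same way, with 3034 and 13211 peaks at 2 h and 3402 and 9645 at 4 h. All 9 IFNg+IL4 peaks at 2 h were found with IL4, beside 97.3% of all, and 7 of 35 IL4 peaks were found with IFNg+IL4, 20.0% (8.44 to 36.9%), beside 20.8%. At 4 h 8 of 9 IFNg+IL4 peaks were found with IL4, 88.9% (51.8 to 99.7%), beside 93.9%, and 8 of 29 IL4 peaks with IFNg+IL4, 27.6% (12.7 to 47.2%), beside 30.8%. The shares near the members were thus close to those of the whole lists. With both lists of a pair cut to the same length, 55.6% of the IFNg+IL4 peaks at 2 h (5 of 9) were found with IL4. In the reverse direction 60.0% of the IL4 peaks at 2 h (3 of 5) and 85.7% at 4 h (6 of 7) were found with IFNg+IL4. When overlap had to cover 50% of both peaks, 33.3% (2 h) and 22.2% (4 h) of the IFNg+IL4 peaks were found with IL4. Of the IL4 peaks at 4 h, 6.9% were then found with IFNg+IL4. The share of all peaks was not computed under either rule.

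**Figure D4:**
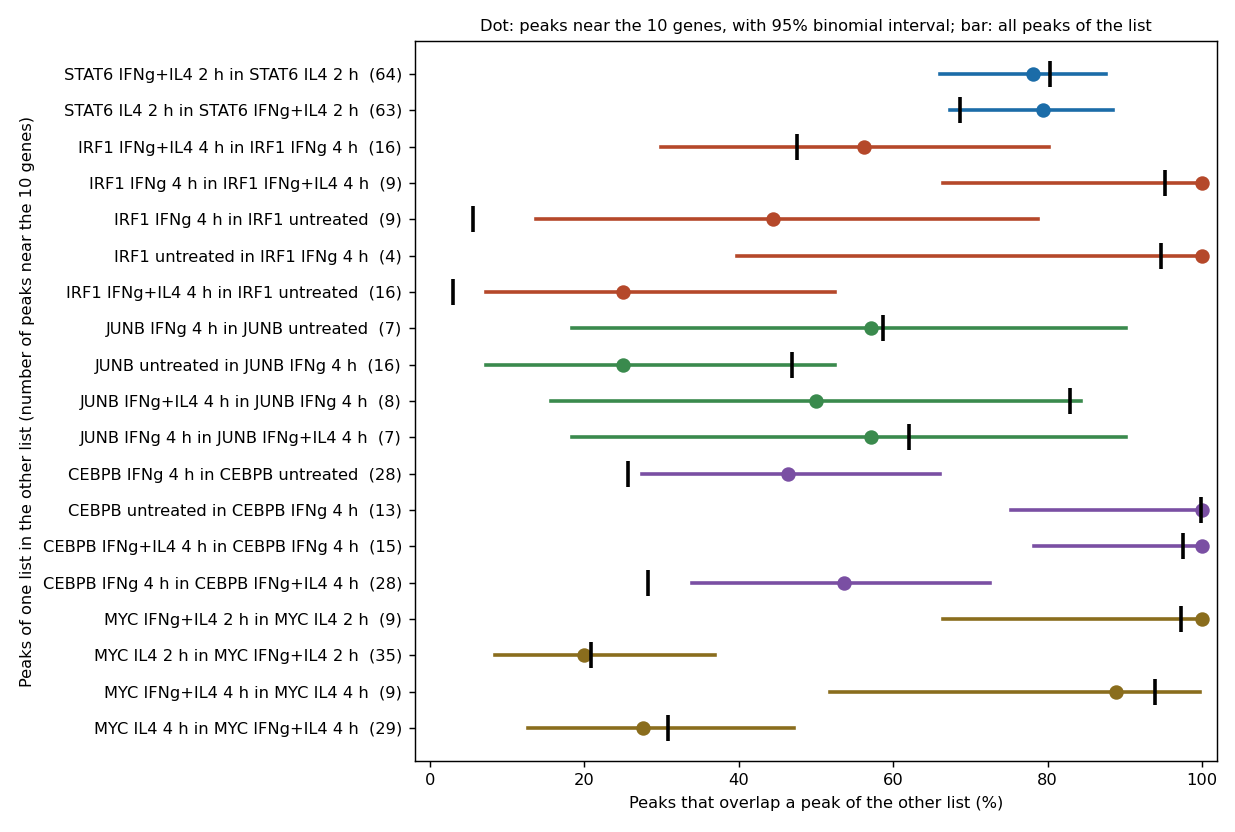
Share of the peaks of one list that overlap a peak of the other list (%, horizontal axis) for each ordered pair (vertical axis, with the number of peaks near the members). Dots are peaks near the 10 genes with exact 95% binomial intervals and black bars all peaks of the list; the CEBPB IFNg peaks are found in the untreated and in the IFNg+IL4 list at 46.4% and 53.6%, to the right of 25.6% and 28.2% for all peaks.

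Sites near the members often held peaks of several factors. A merged site pools lists of any treatment and time, and STAT6 was mapped in no state shared with IRF1, JUNB or CEBPB. Such a site therefore does not show factors bound at once. Peaks of 2 or more factors fell in 43 of 95 merged sites, 45.3% (35.0 to 55.8%), beside 34.0% of all merged sites. Peaks of 3 or more fell in 23, 24.2%, beside 14.1%. All 5 factors were listed at 3 sites, at Junb, Batf3 and Atf3. STAT6 took part in 74 of the 95 sites and was alone at 32 of them. JUNB was listed at 21 sites and STAT6 at 20 of those, MYC at 15 and CEBPB at 13. Partner counts were not computed over all merged sites, so they show no pairing particular to the members. A JUNB peak with no other factor occurred at 1 site, the IFNg peak at Junb. Most peaks lay outside the genes: 185 of 325 upstream (56.9%), 81 downstream (24.9%) and 43 inside the span (13.2%), with the 16 at Batf2 not assigned a side. The 20 kb flanks on both sides are together longer than the span of any member, so this split follows in part from the window. By presence or absence of a peak over the 16 lists, the most alike members were Fos and Junb, with 0.929 of the lists held by either gene held by both, and the next Fosl2 and Junb (0.867) and Batf3 and Fosl2 (0.857). Batf was least like its nearest member, Atf3 (0.538).

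**Figure D5:**
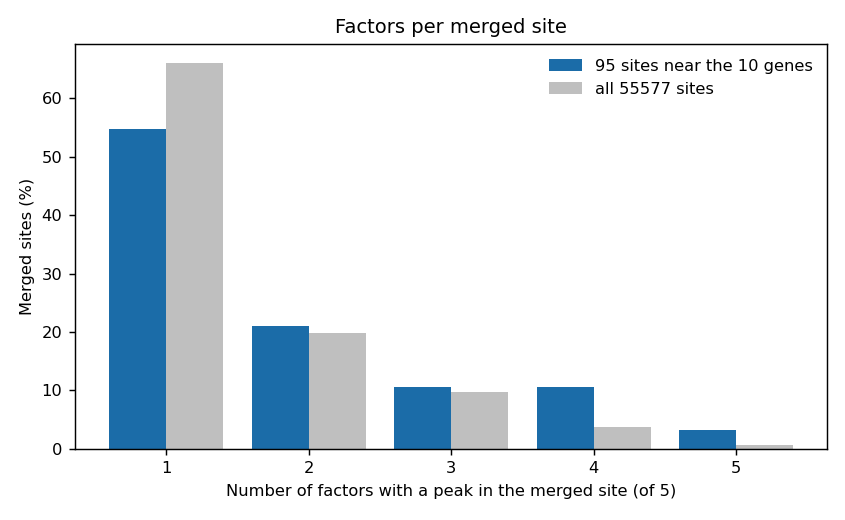
Merged sites (%, vertical axis) by the number of the 5 factors with a peak there in any list (horizontal axis), for the 95 sites near the members (blue) and all 55577 sites (grey). Sites of 2 or more factors are 45.3% near the members and 34.0% of all.

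Other genes of the pathway were described from 3 lists. Of 19 further leucine zipper genes, which encode possible partners, 18 (94.7%) had a STAT6 peak with IFNg+IL4 and 19 (100.0%) with IL4, where 46.0% and 49.8% of all genes did. JUNB was near 9 of them (47.4%) with IFNg+IL4, 8 (42.1%) with IFNg and 12 (63.2%) untreated, where 16.8%, 20.7% and 25.2% of all genes had a JUNB peak. Those with most peaks over all lists were Bach2, a repressor of lymphocyte differentiation, with 64, Atf6, a sensor of unfolded proteins, with 60, and Nfe2l2, which encodes the oxidative stress factor NRF2, with 53. Of 17 kinases and phosphatases that control AP-1 activity, 14 (82.4%) had a STAT6 peak with IFNg+IL4 and 15 (88.2%) with IL4, and 9 (52.9%) a JUNB peak with IFNg+IL4, 10 (58.8%) with IFNg and 10 (58.8%) untreated. Here Map3k5, which encodes the stress kinase ASK1, had 60 peaks, Map3k8, which encodes the kinase TPL2 of the ERK route, 51, and Mapk14, which encodes p38α, 35. Among the genes with a JUNB peak in every JUNB list were the phosphatase genes Dusp1 and Dusp6. The 2 IRF partners of BATF both had STAT6 peaks in both lists. Irf8 had 3 STAT6 peaks with IFNg+IL4 and 9 with IL4, and Irf4 had 3 in each.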

How the data were processed

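Peak lists of 17 ChIP-seq libraries (16 ChIP and 1 input) were used, each from a single library, and samples were grouped by factor, treatment and time as given in the labels. The submitters' processing notes name Bowtie2 2.2.6, MACS2 2.1.0.20150731 and the build mm10 (GRCm38). The sources used here do not give the settings. The deposited lists have 10 columns and no header. Fold enrichment over control, a ratio, and −log10 p and q were deposited for every peak as the authors' peak caller gave them. The deposited score equals 10 times the −log10 q in 15 lists and 10 times the −log10 p in the untreated JUNB list. These are the authors' values and rank peaks within 1 list only. Sequencing depth was not used as such and enters only through the length of each list.

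Peaks on chromosomes 1 to 19, X and Y that overlapped no input peak were kept. The summit was column 2 plus column 10. Gene spans came from a RefSeq table of GRCm38.p6 and gene starts and upstream sequences from its promoter table. Counts, overlaps (1 bp) and merged sites were computed with Python 3.11.15, pandas 2.3.3 and scipy 1.17.1 and tested on simulated peaks. Alternatives were windows of 5 and 50 kb, a −log10 q of at least 2 or 5, the nearest gene start, input overlaps kept, 50% reciprocal overlap, summits within 200 bp and lists of equal length. The members, gene lists, motifs and comparisons were chosen with earlier results of these data known. One motif of the search is not reported here. All members are named. Sites are given that are the strongest of a factor at a member, in the strongest 1% of a list, within 1 kb of a start or shared by many lists, the last chosen after their values were seen. Of the pathway lists the 3 genes with most peaks are named, with up to 5 that have a peak in every list of a factor.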

Additional observations from a re-analysis of the deposited data

How the results depend on the processing

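Of 309 recomputed values for 40 results, 278 stayed within 1.5 times the count, or within the interval of the share, and 31 moved. A window of 5 kb left 2 members near JUNB with IFNg, 3 near JUNB with IFNg+IL4, 2 near MYC with IFNg+IL4 at 2 h and 49 merged sites. A window of 50 kb gave 5 members for untreated IRF1, 7 and 8 for MYC with IFNg+IL4 at 2 h and 4 h, and 159 sites. At a −log10 q of at least 5, untreated JUNB was near 2 members and had 0 peaks near Junb, 14.3% of JUNB IFNg peaks were found untreated, and 100.0% of MYC IFNg+IL4 peaks at 4 h with IL4. With a reciprocal overlap of 50%, shares were 64.1% for STAT6 IFNg+IL4 peaks in IL4 and 65.1% for the reverse, 61.5% for untreated CEBPB peaks in IFNg, 33.3% and 22.2% for MYC IFNg+IL4 peaks in IL4 at 2 h and 4 h, and 6.9% for MYC IL4 peaks at 4 h in IFNg+IL4. With all lists of a factor cut to the same length, IRF1 was near 0 members with IFNg+IL4 and 2 with IFNg, and MYC near 2 in each treated list (2 with IFNg+IL4 at 2 h, 2 at 4 h, 2 with IL4 at 2 h, 2 at 4 h); these lists hold fewer peaks by construction. With both lists of a pair cut to the same length, 90.0% of IRF1 IFNg+IL4 peaks and 25.0% of untreated IRF1 peaks were found with IFNg. For CEBPB IFNg peaks it was 92.9% in IFNg+IL4 and 78.6% untreated. For MYC it was 55.6% of IFNg+IL4 peaks in IL4 at 2 h, 60.0% for the reverse, and 85.7% of IL4 peaks in IFNg+IL4 at 4 h. For shares found in another list, the share of all peaks was not recomputed under any alternative. The cause of the other moves was not tested. The nearest-start alternative could not give a value for Batf2, which has no listed start; of the peaks at the other 9 members, 267 of 309 were nearest to their own start. No paired analysis was possible because each group was 1 library.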
